A study of Mus musculus with 5 samples.

Results

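Contactins, sidekicks and the Dscam proteins are adhesion molecules of the immunoglobulin superfamily that neurons display on axons, dendrites and synapses. Their 10 genes on the array were Cntn1 to Cntn6, Sdk1, Sdk2, Dscam and Dscaml1. All probe sets whose only platform gene symbol was one of these names were taken. This gave 27 of the 45037 probe sets tested, 13 for contactins, 4 for sidekicks and 10 for Dscam and Dscaml1. A probe set is the group of short probes that reads 1 transcript, and probe sets annotated to several genes were left out beforehand.

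RNA was taken at postnatal day 0 from the dLGN (dorsal lateral geniculate nucleus), where retinal input is relayed to visual cortex. The Sema6A-/- group (KO) had 2 arrays from homozygous knockout mice, and the control group had 3 arrays from Sema6A heterozygous mice, which carry 1 working copy. All were on a C57BL/6 background and none received a treatment. Every array was a pool of nuclei from pups of a single genotype and several litters, so the p-values measure the spread between pools, and how the Sema6A allele was made is not given in the sources used here. Levels are given on a log2 scale, 1 value per probe set and array, and a difference of 1 on this scale is a change by a factor of 2. Exact permutation of 2 and 3 pools can reach no p smaller than 0.1, so the tests reported are those of limma across all probe sets.

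Contactins are held in the membrane by a lipid anchor and bind other adhesion proteins, receptor phosphatases and extracellular matrix on the same or a neighbouring cell. Sidekicks and Dscam proteins span the membrane and bind copies of themselves on other cells. In the retina, which projects to the dLGN, these families are known for matching the neurites of synaptic partners in layers and for keeping neurites of like cells apart. In bulk tissue, more cells of a type and more RNA per cell cannot be told apart, which holds for every difference below.

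The labels were checked on the targeted gene. The brightest Sema6a probe set read 7.81 and 7.85 in KO pools, against 10.47, 10.65 and 10.39 in control pools. Tissue identity was checked on 14 marker genes of thalamic relay neurons, all of which reached the median level of all values, 6.41, in at least 1 group. Reaching that level is a low bar, which 11968 of 18193 genes met at their brightest probe set. The mean level of the 14 markers was 11.05 and 11.42 in KO pools and 11.08 to 11.28 in control pools. Single markers moved more, with log2 fold changes from -1.44 for Slc6a4 to 1.97 for Gbx2, and 7 of the 14 were positive. Slc6a4 read 7.98 and 10.60 in KO pools, against 10.60, 10.85 and 10.74 in control pools. KO replicate 1 stood apart from the other arrays. The median of 18 prethalamic and GABAergic markers lay 2.57 above the control mean in that array and 0.12 above it in KO replicate 2. Control probe sets of the array read Gapdh and Actb at both ends of the transcript. The 3′ end of Gapdh exceeded the 5′ end by 2.34 in KO replicate 1 and by 0.96 in KO replicate 2, against 0.77 to 1.32 in control pools. For Actb the difference was 1.91 in KO replicate 1 and 0.97 in KO replicate 2, against 0.62 to 1.45 in control pools. Control replicate 3 stood apart in the mean level of 7 meningeal and fibroblast markers. This mean was 5.80 and 5.73 in KO pools, against 6.14, 5.80 and 7.38 in control pools. Foxc1 and Ranbp3l did not set that array apart, at 7.17 and 2.70. In control replicate 2 they read 7.44 and 2.70. Dcn, Lum and Ranbp3l were under the median level in both groups. Several results that rest on either array are given with and without it.

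Sdk1 was the member gene that rose in the knockout, while the other 9 genes had 0 probe sets past an adjusted p of 0.05 in limma. Of all 27 probe sets, 1 was called higher and 0 lower at that threshold, beside 0.0644% of all probe sets called higher and 0.00888% called lower. With no adjustment, a p under 0.05 was reached by 7 probe sets higher and 1 lower, beside 5.16% and 5.99% of all probe sets. Both KO arrays lay above every control at 11 probe sets, where 12.9% of all probe sets did so, and below every control at 5, where 14.5% did so. Several probe sets read the same gene, so these counts are not over independent items. When each gene was read at its brightest probe set, the one with the highest mean over the 5 arrays, 0 genes passed the adjusted threshold in limma, and 4 had an unadjusted p under 0.05, all higher in KO (Sdk1, Cntn2, Cntn4 and Dscaml1). Over 18193 genes, 0.0879% passed as higher and 0.0165% as lower after adjustment, and 6.9% and 4.9% before it. The KO arrays lay above every control for 6 of 10 genes (Cntn2, Cntn4, Cntn6, Sdk1, Sdk2 and Dscaml1) and below every control for 0. The same was seen for 15.8% and 13.9% of all genes. The median log2 fold change was 0.04 over the 27 probe sets and -0.01 over all probe sets.

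**Figure D1:**
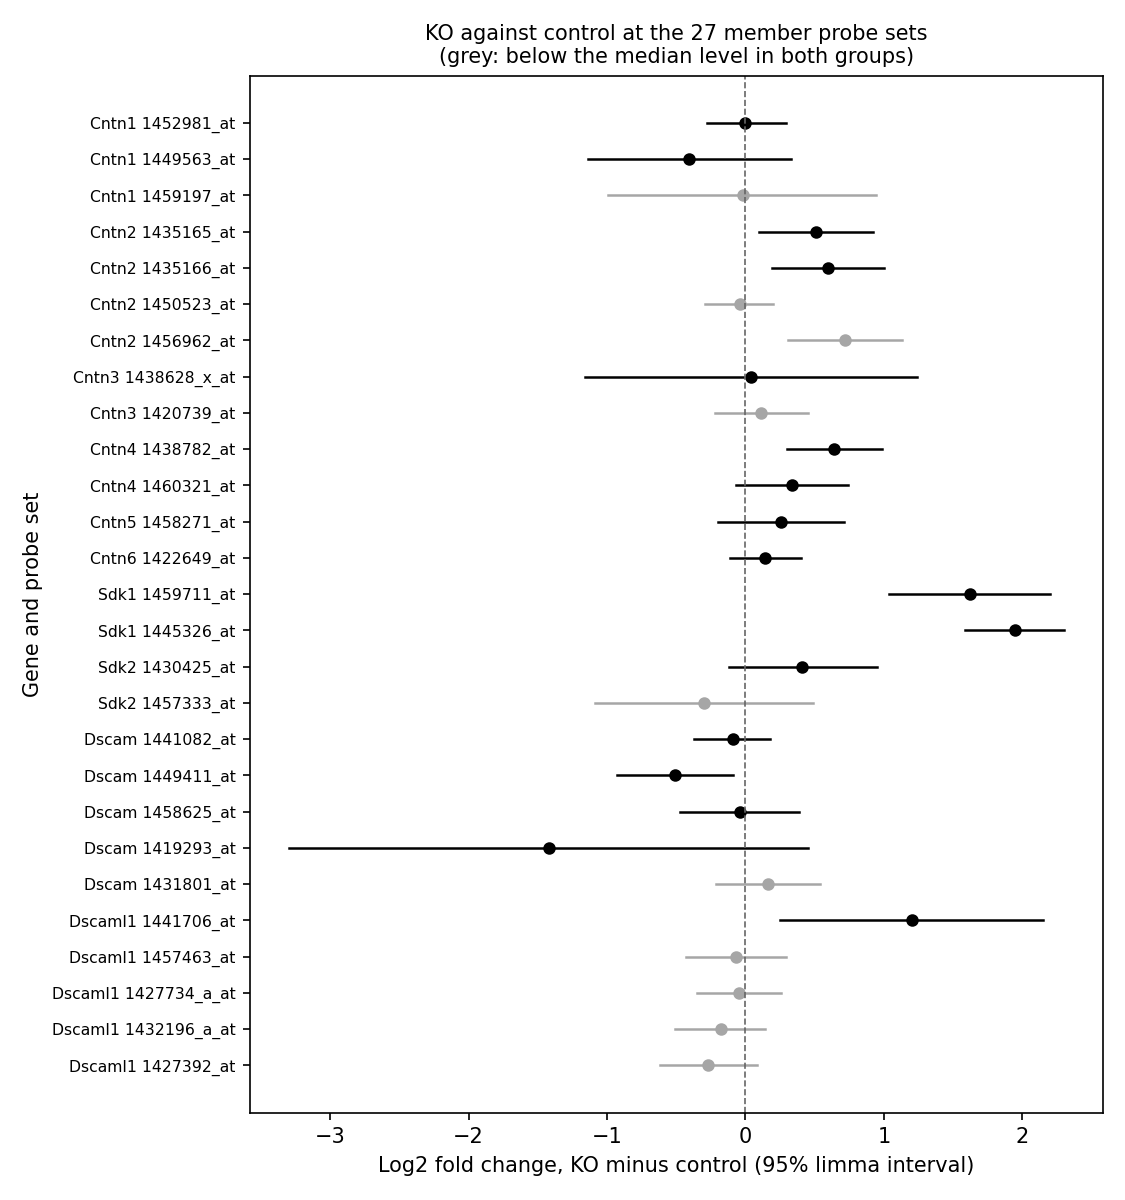
Log2 fold change, KO minus control, at each of the 27 probe sets (rows), with the 95% interval of limma as a line. Black marks probe sets that reached the median level in at least 1 group and grey those that did not. Both Sdk1 probe sets lie at 1.62 and 1.95 with intervals above 1, while most others have intervals that include 0.

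The sidekicks are homophilic adhesion proteins, and in mouse and chick retina they are known for steering neurites to the layer where their partners synapse. Sdk1 was read by 2 probe sets designed on different sequences, and both separated the groups. Neither design sequence was a RefSeq transcript, and where the probes lie in the gene is not given in the sources used here. Probe set 1445326_at read 8.79 and 8.88 in KO pools, against 6.69, 7.04 and 6.93 in control pools. The lowest KO value lay 1.75 above the highest control, a gap wider than the spread inside either group. Sdk1 rose 3.86-fold at this probe set, by 1.95 on the log2 scale (SE 0.14; limma adjusted p = 0.0365), and it was rank 21 of all probe sets by p.

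The brighter Sdk1 probe set, 1459711_at, read 9.41 and 10.11 in KO pools, against 8.25, 8.18 and 7.98 in control pools. The groups did not overlap here either, and KO replicate 2 was the higher of the KO pools. This 3.07-fold difference, 1.62 on the log2 scale (SE 0.23), missed the threshold (limma adjusted p = 0.120). For the mean of both probe sets the log2 fold change was 1.78, with a limma adjusted p of 0.0162 over the means of all genes. The call at 1445326_at was lost with array weights (adjusted p = 0.0608), with the replicate number as a block (0.306) and with any 1 array left out, where adjusted p-values lay between 0.0827 and 0.263 and 0 probe sets of the whole array passed. The log2 fold change itself stayed between 1.85 and 2.02 with 1 array left out.

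Sdk2, the paralogue of Sdk1, was read by a probe set above the median level and by another below it. Probe set 1430425_at read 7.66 and 7.70 in KO pools, against 7.34, 6.89 and 7.57 in control pools. The KO values were nearly equal and lay 0.09 above the highest control. KO exceeded control by 0.41, with a 95% interval from -0.12 to 0.95 (limma adjusted p = 0.547). The dim probe set 1457333_at gave -0.30 with overlapping groups. Without control replicate 2 the value at 1430425_at was 0.23, and the mean of both probe sets gave 0.06 for Sdk2. Whether the paralogues differ in their response was not tested.

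**Figure D2:**
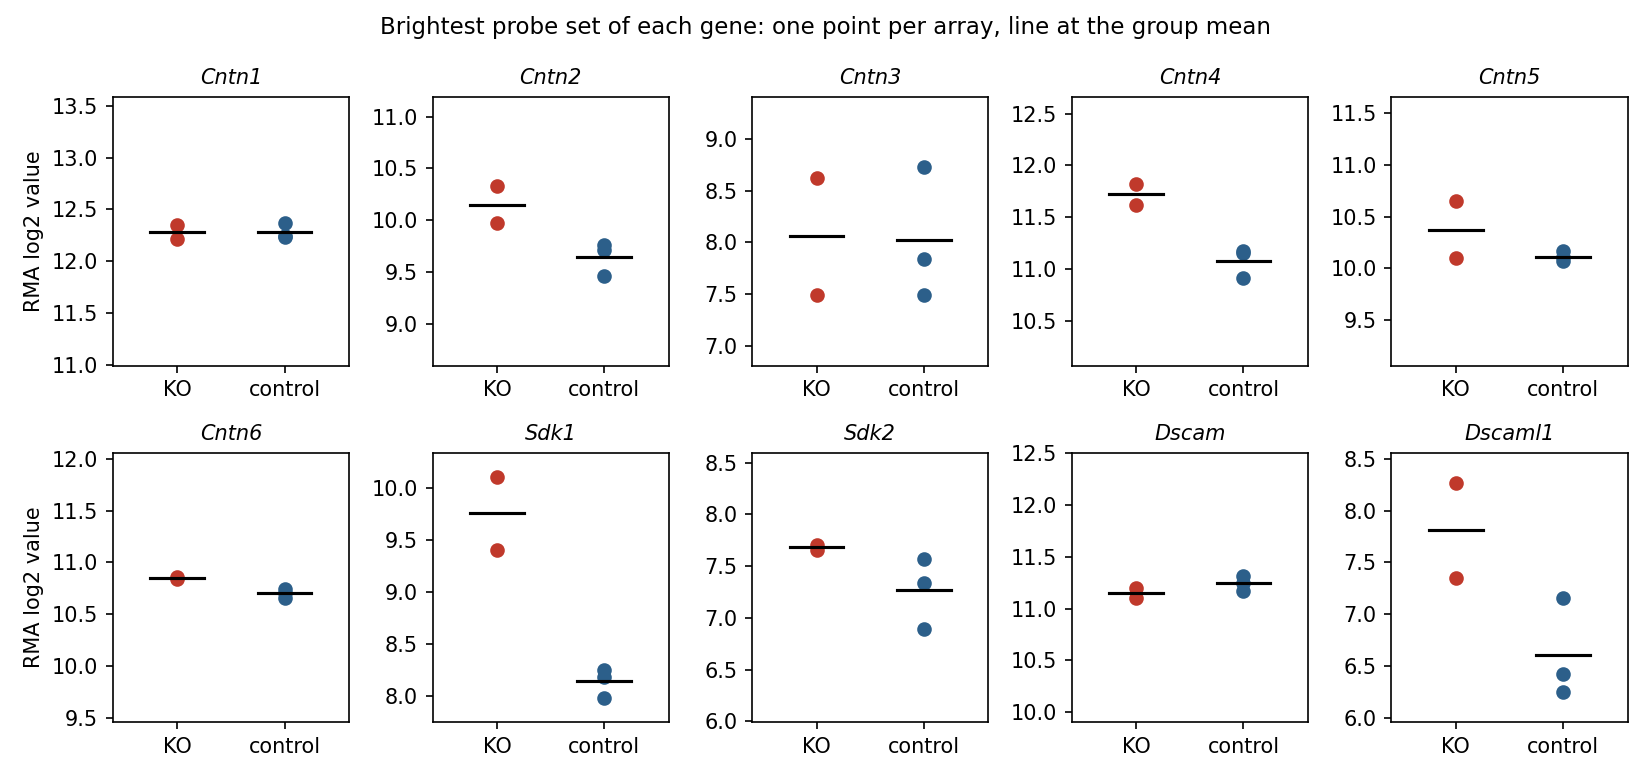
RMA log2 value of each gene where it was brightest, 1 point per array (red, KO; blue, control), with a line at the group mean. Every panel spans the same number of log2 units, so distances can be compared between panels and levels cannot. The KO points of Sdk1 (9.41 and 10.11) lie farthest from the controls (7.98 to 8.25), those of Cntn4 lie at 11.62 and 11.82 above 10.91 to 11.17, and those of Cntn1 and Cntn3 overlap the controls.

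The promoters of the sidekicks and of both contactins whose brightest probe sets separated the groups at an unadjusted p under 0.05 are shown for comparison. RefSeq windows of 300 bases, 250 before and 50 after the transcript start in GRCm38.p6, were given for 9 of the 10 genes, with 13 windows in all. Capitals mark the GC box, GGGCGG or its reverse complement CCGCCC, and each window is read 5′ to 3′ on the strand of its gene. For Cntn4, which had more than 1 start, the downstream start is shown.
Sdk1, chr5:141241284-141241583, plus strand: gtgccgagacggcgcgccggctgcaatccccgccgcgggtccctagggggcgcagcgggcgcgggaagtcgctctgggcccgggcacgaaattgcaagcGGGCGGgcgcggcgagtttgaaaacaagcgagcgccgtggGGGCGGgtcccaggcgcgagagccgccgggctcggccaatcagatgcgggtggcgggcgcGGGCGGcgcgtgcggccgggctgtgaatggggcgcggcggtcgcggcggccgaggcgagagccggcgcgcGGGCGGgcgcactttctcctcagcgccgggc
Sdk2, chr11:114066980-114067279, minus strand: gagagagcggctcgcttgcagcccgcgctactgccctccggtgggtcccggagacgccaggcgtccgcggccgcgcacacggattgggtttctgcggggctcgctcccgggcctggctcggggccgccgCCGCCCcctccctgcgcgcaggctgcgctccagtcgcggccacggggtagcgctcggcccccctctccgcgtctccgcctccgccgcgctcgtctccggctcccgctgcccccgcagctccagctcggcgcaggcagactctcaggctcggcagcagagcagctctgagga
Cntn2, chr1:132542891-132543190, minus strand: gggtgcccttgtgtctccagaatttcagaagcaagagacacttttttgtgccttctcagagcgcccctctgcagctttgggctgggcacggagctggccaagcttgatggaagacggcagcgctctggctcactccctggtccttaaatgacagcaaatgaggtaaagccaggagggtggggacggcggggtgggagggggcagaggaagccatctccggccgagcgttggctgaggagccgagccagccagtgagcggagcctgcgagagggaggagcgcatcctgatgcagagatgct
Cntn4, chr6:106118692-106118991, plus strand: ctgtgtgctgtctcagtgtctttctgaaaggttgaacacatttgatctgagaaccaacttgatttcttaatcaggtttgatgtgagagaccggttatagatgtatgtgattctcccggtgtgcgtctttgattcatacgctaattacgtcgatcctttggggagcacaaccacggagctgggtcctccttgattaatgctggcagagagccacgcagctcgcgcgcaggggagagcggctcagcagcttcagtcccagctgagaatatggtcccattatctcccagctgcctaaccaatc
The Sdk1 window held 4 GC boxes and the Sdk2 window 1, and the Cntn2 and Cntn4 windows held 0. At least 1 GC box was found in 35.7% of all 32851 windows. Guanine and cytosine made up 78.3% of the Sdk1 window, 76.7% of the Sdk2 window, 61.3% of the Cntn2 window and 50% of the Cntn4 window, against a median of 52.7% over all windows. The ratio of observed to expected CG dinucleotides was 1.22 for Sdk1, 0.94 for Sdk2, 0.48 for Cntn2 and 0.64 for Cntn4, with a median of 0.38 over all windows. None of these 4 windows held the TATA box TATAAA, which 13.6% of all windows held on either strand. The Cntn4 window held 1 copy of TAATTA, a core that homeodomain factors bind, found in 5.29% of all windows. These matches describe the letters of the windows and are not shown to be sites.

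Markers of other cell types were set beside Sdk1, since they moved in the same arrays. The median of 15 microglia markers lay 1.92 above the control mean in KO replicate 1 and 1.74 above it in KO replicate 2. All 15 had KO arrays above every control, where 15.8% of all genes did so. In limma, 3 of them rose at an adjusted p under 0.05, where 0.0879% of all genes did so. The mean microglia level was 8.49 and 8.33 in KO pools and 6.58 to 6.70 in control pools, with Itgam, P2ry12 and Ptprc under the median level in both groups. Their part in the Sdk1 result was not tested.

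The prethalamic and GABAergic markers were set beside Sdk1 as well. Their mean level was 8.01 in KO replicate 1 and 5.90 in KO replicate 2, against 5.55 to 5.96 in control pools, and Dlx1, Dlx2, Dlx5, Dlx6, Lhx6, Lhx8 and Sox14 were under the median level in both groups. Sdk1 at 1445326_at lay equally high in both KO pools, and without KO replicate 1 its log2 fold change was 1.99. At 1459711_at it was 1.97 without that array. The part of these cells in the Sdk1 result was not tested. For 10 cortical and hippocampal markers the median lay 0.08 above the control mean in KO replicate 1 and 0.32 above it in KO replicate 2. Their mean level was 6.79 and 6.91 in KO pools and 6.49 to 6.62 in control pools. Log2 fold changes ran from -0.52 to 1.58, and 7 of the 10 were positive. Emx1, Fezf2, Neurod2 and Neurod6 were under the median level in both groups, and the part of cortical cells was not tested either.

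**Figure D3:**
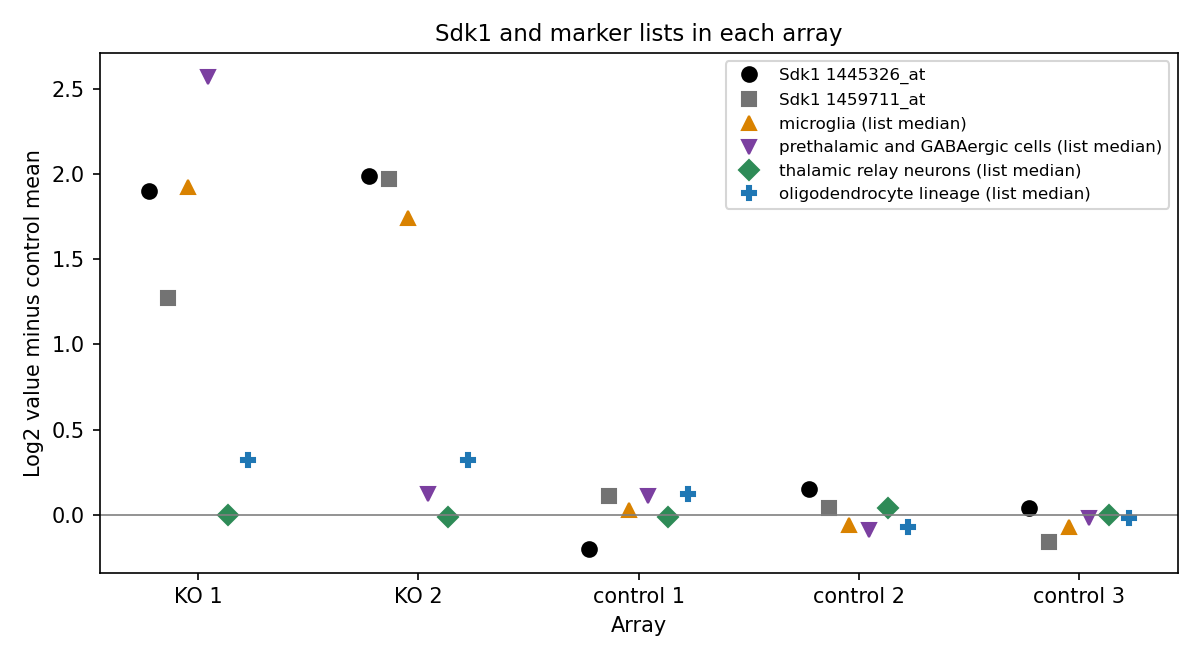
Log2 value minus the control mean in each of the 5 arrays, for both Sdk1 probe sets and for the medians of 4 marker lists. Sdk1 and the microglia list are high in both KO arrays, and the prethalamic and GABAergic list is high in KO replicate 1 (2.57) and near 0 in KO replicate 2 (0.12). The median of the relay neuron list stays near 0 in all arrays, while single markers of that list moved in both directions.

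By the smallest root mean square difference between profiles over the 5 arrays, each centred on its own mean, the genes most like Sdk1 at 1445326_at were Nrgn, Phactr1, Fcgr3, Styk1 and Greb1. Nrgn, a calmodulin-binding protein of dendrites, differed from it by 0.0774 log2 units on this measure. It read 7.34 and 7.30 in KO pools, against 5.33, 5.49 and 5.50 in control pools. Phactr1, a regulator of actin and protein phosphatase, differed by 0.0954 and Fcgr3, an immunoglobulin receptor of myeloid cells, by 0.11. Styk1 and Greb1 differed by 0.114 and 0.125. Log2 fold changes of these 5 genes lay between 1.76 for Greb1 and 2.08 for Fcgr3. Only probe sets that reached the median level of 6.41 in at least 1 group were searched. Nrgn and Greb1 reached it in the KO group alone, with control means of 5.44 and 5.79. The likeness is over 5 arrays and rests on the step between the groups.

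The contactins as a group had 0 of 13 probe sets past the adjusted threshold in limma, and 4 higher and 0 lower values had an unadjusted p under 0.05, beside 5.16% and 5.99% of all probe sets. Those 4 read Cntn2 and Cntn4. Cntn2, also known as TAG-1, is displayed on growing axons and later holds potassium channels beside the nodes of myelinated fibres together with Cntnap2. Its brightest probe set, 1435165_at, read 9.97 and 10.33 in KO pools, against 9.46, 9.76 and 9.71 in control pools. The KO values lay above every control, by 0.21 at the narrowest point. The mean difference was 0.51 on the log2 scale, with a 95% interval from 0.10 to 0.92 (limma adjusted p = 0.367).

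The other Cntn2 probe sets did not all move the same way. Probe set 1435166_at, designed on the same sequence as 1435165_at, read 9.57 and 9.55 in KO pools, against 8.73, 9.20 and 8.96 in control pools, a log2 fold change of 0.60 (limma adjusted p = 0.305). Probe set 1456962_at was under the median level in both groups and gave 0.72 (limma adjusted p = 0.242), with 6.40 and 5.95 in KO pools and 5.37 to 5.53 in control pools. Probe set 1450523_at gave -0.04, with values between 5.95 and 6.01 in all arrays. Cntn2 is also expressed by oligodendrocytes, and the median of 11 oligodendrocyte lineage markers lay 0.32 above the control mean in each KO array, with Mobp and Mog under the median level in both groups. Their mean level was 8.79 and 8.78 in KO pools and 8.38 to 8.53 in control pools. The 11 markers did not all move the same way. A positive log2 fold change was found for 8 of them, with Mbp at 1.55, while Mag gave -0.92 with both KO arrays below every control. The part of these cells in the Cntn2 values was not tested.

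Cntn4, also known as BIG-2, guides olfactory axons and the axons of some retinal ganglion cells, where it acts with the amyloid precursor protein. Its brightest probe set, 1438782_at, read 11.82 and 11.62 in KO pools, against 11.15, 11.17 and 10.91 in control pools. The KO pools were both higher, with a gap of 0.45 to the highest control. On the log2 scale the difference was 0.64, with a 95% interval from 0.30 to 0.99 (limma adjusted p = 0.225). The second probe set, 1460321_at, read 7.78 and 7.73 in KO pools, against 7.22, 7.35 and 7.67 in control pools, with a log2 fold change of 0.34 (limma adjusted p = 0.521). Here the gap between the groups was 0.06, and control replicate 3 lay close to the KO pools. Leaving out that control gave 0.46 at 1460321_at. Without KO replicate 1 the differences were 0.54 for Cntn4 at 1438782_at and 0.69 for Cntn2 at 1435165_at, and without KO replicate 2 they were 0.74 and 0.33.

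Cntn6, also known as NB-3 and studied mostly in the cerebellum and in cortical dendrites, had a single probe set with narrow groups. It read 10.84 and 10.86 in KO pools, against 10.66, 10.71 and 10.74 in control pools. The KO values were higher without overlap, yet the log2 fold change was only 0.14, with a 95% interval from -0.11 to 0.40 (limma adjusted p = 0.649).

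Cntn5, also known as NB-2 and known from the auditory pathway, read 10.65 and 10.10 in KO pools, against 10.17, 10.07 and 10.11 in control pools. KO replicate 1 alone stood above the controls, and KO replicate 2 lay within their range. Its log2 fold change was 0.26 with all arrays (limma adjusted p = 0.648) and -0.02 without KO replicate 1. That array had high prethalamic and GABAergic markers and wide 3′ to 5′ differences of Gapdh and Actb, and the part of neither was tested.

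Cntn1, also known as F3, joins axon and glia at the junctions that flank nodes of Ranvier, and Cntn3 is known as BIG-1. The brightest Cntn1 probe set, 1452981_at, read 12.35 and 12.21 in KO pools, against 12.37, 12.24 and 12.23 in control pools. The groups overlapped, and the log2 fold change was 0.00 with a 95% interval from -0.28 to 0.29. Probe set 1449563_at read 9.55 and 9.61 in KO pools, against 9.74, 9.66 and 10.57 in control pools, where control replicate 3 stood high. Its log2 fold change was -0.41 (limma adjusted p = 0.654) and -0.12 without that array. The mean of the meningeal and fibroblast markers was high in control replicate 3, and their part was not tested. The third Cntn1 probe set was under the median level, at -0.02.

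The Cntn3 probe set 1438628_x_at, whose suffix marks probes that can bind other transcripts, varied inside both groups. It read 8.62 and 7.49 in KO pools, against 8.73, 7.49 and 7.84 in control pools, with a log2 fold change of 0.04 and a 95% interval from -1.16 to 1.24. Cntn3 at 1420739_at lay between 3.61 and 3.91 in all arrays, under the median level.

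In the RefSeq annotation of GRCm38.p6, Cntn3, Chl1, Cntn6 and Cntn4 follow one another on chromosome 6 with no other protein-coding gene between them. Where each was brightest, the log2 fold changes were 0.04 for Cntn3, 0.03 for Chl1, 0.14 for Cntn6 and 0.64 for Cntn4. Chl1, a relative of L1 that acts with semaphorin receptors, read 13.22 and 13.27 in KO pools, against 13.22, 13.18 and 13.23 in control pools. None of these 4 genes passed the adjusted threshold in limma, and Cntn4 was the one with an unadjusted p under 0.05 (0.00432).

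Dscam is known in mouse retina for keeping dendrites of like neurons from clumping, and Dscaml1 for the same in other retinal cell types. At 10 probe sets of both genes, 0 passed the adjusted threshold in limma, with 1 higher and 1 lower at an unadjusted p under 0.05. Across the whole array, 5.16% of probe sets rose and 5.99% fell past that unadjusted cutoff. The brightest Dscam probe set, 1441082_at, read 11.10 and 11.20 in KO pools, against 11.17, 11.31 and 11.25 in control pools. The groups overlapped, with a log2 fold change of -0.09 and a 95% interval from -0.37 to 0.18. Probe set 1458625_at gave -0.04 with overlapping groups.

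Another 2 probe sets of Dscam were designed on the same RefSeq transcript. Probe set 1449411_at read 9.03 and 9.07 in KO pools, against 9.36, 9.49 and 9.84 in control pools, so that the KO arrays lay below every control by at least 0.29. The log2 fold change was -0.51, with a 95% interval from -0.93 to -0.09 (limma adjusted p = 0.372), and -0.38 without control replicate 3. Probe set 1419293_at read 5.71 and 7.75 in KO pools, against 7.37, 7.97 and 9.13 in control pools. KO replicate 1 was the low array and control replicate 3 the high one, and KO replicate 2 lay inside the control range. The log2 fold change was -1.42 (limma adjusted p = 0.553), and it was -0.41 without KO replicate 1, -2.44 without KO replicate 2 and -0.94 without control replicate 3. KO replicate 1 is the array with the wide 3′ to 5′ difference of Gapdh. Control replicate 3 is the one with the high mean of meningeal and fibroblast markers, and the part of neither feature was tested. Averaged over all its probe sets, Dscam gave -0.38. The fifth Dscam probe set was dim, at 3.37 in both KO pools and 2.97 to 3.34 in control pools.

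Dscaml1 had a single probe set of 5 above the median level, for which the platform annotation gave no design sequence. Its KO values were higher, though the difference missed the adjusted threshold. Probe set 1441706_at read 8.27 and 7.35 in KO pools, against 6.42, 6.25 and 7.16 in control pools. The groups did not overlap, but the gap of 0.19 was smaller than the spread inside each group. The log2 fold change was 1.20, with a 95% interval from 0.25 to 2.15 (limma adjusted p = 0.360). It was 0.74 without KO replicate 1 and 1.48 without control replicate 3. The other 4 probe sets of Dscaml1 were dim and gave log2 fold changes between -0.27 and -0.05. At 2 of them both KO arrays lay below every control, with gaps of 0.02 and 0.04, where 14.5% of all probe sets lay below. The mean of all 5 probe sets gave 0.13 for the gene.

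**Figure D4:**
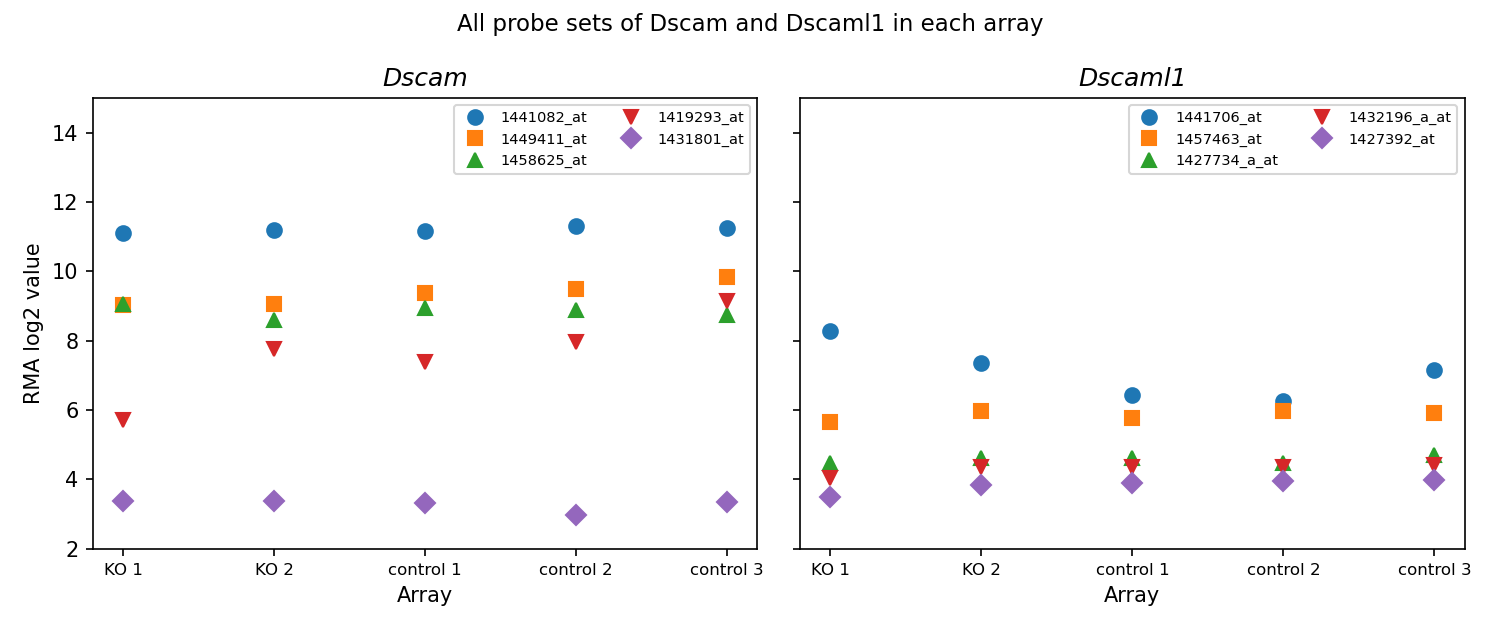
RMA log2 values of all probe sets of Dscam and Dscaml1 in each of the 5 arrays, 1 symbol per probe set. For Dscam, 1419293_at drops to 5.71 in KO replicate 1 while 1441082_at stays between 11.10 and 11.31. For Dscaml1, 1441706_at is highest in KO replicate 1 (8.27) and the other probe sets lie under 6 in all arrays.

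A list of binding partners and related genes was set beside the members. Of 29 listed genes 24 were measured, and 0 were called in limma where each gene was brightest. Without adjustment, 4 were higher and 2 lower at a p under 0.05. That unadjusted threshold was passed by 11.8% of 18193 genes, 6.9% higher and 4.9% lower. The median log2 fold change of the list was -0.03, beside 0.01 over all genes. The genes that follow are the 6 with the smallest p among those that reached the median level.

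Tnr, tenascin-R, a matrix protein that binds Cntn1, read 6.63 and 6.72 in KO pools, against 5.47, 4.97 and 4.97 in control pools. The KO values were higher by at least 1.16, with a log2 fold change of 1.54 (limma adjusted p = 0.0929). Tnr reached the median level of 6.41 in the KO group alone, with a control mean of 5.14, so the filter kept it through that group. Dcc, the netrin receptor, gave 0.98, and Nfasc, which encodes neurofascin, the glial partner of Cntn1 beside the nodes, gave 0.44. The scaffold genes Magi1 and Magi3, whose products belong to a family that binds the tails of sidekicks, gave 0.53 and -0.57. Nova2, a neuronal splicing factor that is no binding partner but was on the list, gave -0.46. Limma adjusted p-values of these last 5 genes lay between 0.240 and 0.375.

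Some further partners, chosen after their values were seen, missed the adjusted threshold as well. Cntnap2, the partner of Cntn2, read 11.92 and 12.22 in KO pools, against 12.24, 12.25 and 12.32 in control pools, with a log2 fold change of -0.20 (limma adjusted p = 0.623), so its KO values lay below every control. Cntnap1, the partner of Cntn1, was under the median level and gave -0.21. Ptprz1, a receptor phosphatase that binds Cntn1, gave 0.28 and Ptprg, which binds several other contactins, -0.21, with limma adjusted p-values of 0.544 and 0.574. The adhesion genes L1cam and Nrcam, whose products bind Cntn2, gave -0.10 and -0.15. Both KO arrays lay below every control for Ptprg, L1cam and Nrcam and above every control for Ptprz1, with gaps of 0.04 to 0.08. Over all 24 measured genes of the list, 6 lay above every control and 6 below. Of all genes, 15.8% lay above and 13.9% below.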

How the data were processed

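The authors deposited 1 log2 value per probe set and array. RMA was the method, per the submitters' processing notes, with its version not given in the sources used here. RMA removes background, forces arrays to 1 distribution and combines the probes of each set, which would hide a shift common to most genes. The log2 scale was read from the values. Nuclei were cut from vibratome sections of 200 µm, and 20 ng of total RNA was amplified before hybridisation, per the labels' protocols.

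Of 45101 probe sets, 64 array controls were left out. Limma 3.58.1 (lmFit and eBayes, R 4.3.3) compared KO with control in a two-sided test on genotype alone, adjusted by Benjamini and Hochberg over 45037 probe sets. The platform annotation gave 34945 of these a single symbol. Array medians lay between 6.39 and 6.42 and correlations between arrays between 0.985 and 0.995, so no pair was a copy. The number of arrays limits the precision. The code was tested on simulated data.

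The members, lists and tests were chosen with earlier results of these data known. All members were named. Of the list of partners and related genes, the 6 with the smallest p that reached the median level in 1 group were named by rule, and Chl1, Cntnap1, Cntnap2, Ptprz1, Ptprg, L1cam and Nrcam were added after their values were seen. For Sdk1, the 5 genes with the nearest profile were named. Alternatives to the fit changed the normalisation (quantiles again, or centred medians), the filter (no dim probe sets), the prior (trend, robust), the arrays (weights, a replicate block, each left out) and the summary of a gene (the mean over its probe sets).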

Additional observations from a re-analysis of the deposited data

How the results depend on the processing

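The count of member probe sets called higher, 1 with all arrays, was 0 with the replicate block and 0 with array weights, and between 0 and 0 with each array left out, as were the counts over all probe sets in limma. Over all probe sets, 29 higher and 4 lower became 0 and 0 with the replicate block, 73 and 41 without dim probe sets, and 66 and 34 with an intensity trend. Array weights gave 16 higher, and 7 were lower with a further quantile normalisation and 7 with centring. Unadjusted p-values under 0.05 numbered 4950 with the block and from 3694 to 8397 with 1 array left out. The labels do not say what a replicate number shares. Deviations of same-numbered arrays correlated at 0.148 and 0.212. The 2 KO arrays deviate as mirror images, so the crossed pairs gave -0.212 and -0.148, and these values say little about a pairing. Control replicate 3 has no KO array of its number. The block therefore gives the log2 fold changes found without that control, from fewer residual degrees of freedom, and is not a separate check. Of 27 member probe sets, 18 kept their direction under every alternative, and both Sdk1 probe sets were among them. The other 9, with log2 fold changes between -0.30 and 0.26, changed sign under at least 1. With the block these were Cntn1 at 1452981_at (-0.02) and 1459197_at (0.29), Cntn3 at 1438628_x_at (-0.05) and Dscaml1 at 1427734_a_at (0.00). With array weights Cntn1 gave -0.01 at 1452981_at and 0.08 at 1459197_at, and the mean of its probe sets gave -0.14. With 1 array left out, the values of Cntn1 ran from -0.07 to 0.07 at 1452981_at and from -0.41 to 0.37 at 1459197_at, those of Cntn3 from -0.52 to 0.60 at 1438628_x_at and from -0.03 to 0.26 at 1420739_at, and those of Cntn5 from -0.02 to 0.53. Sdk2 at 1457333_at ran from -0.63 to 0.03, Dscam at 1458625_at from -0.27 to 0.20, and Dscaml1 from -0.12 to 0.02 at 1427734_a_at and from -0.23 to 0.09 at 1457463_at. Some of these alternatives leave fewer arrays or probe sets in the fit, and the cause of the changes was not tested.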
